A study of Mus musculus with 29 samples.

Results

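The kinesins are motor proteins that walk along microtubules, and their genes were followed in C2C12, a mouse myoblast line that divides in rich medium and fuses into muscle fibres, called myotubes, when it differentiates. A gene was included if its symbol is Kif followed by a digit, and it was represented by the array probe set with the highest mean over the 27 arrays of transfected cells. This gave 38 of the 19938 measured genes, among them the transcribed pseudogene Kif4-ps. They were sorted by known role into 11 mitotic kinesins, 13 transport kinesins and a remaining group of 14. Earlier results of these data were known when the classes were set. At passage 27, proliferating cells were given 50 nM of a synthetic mimic or of the negative control oligonucleotide AllStar, and RNA was taken 36 h later. The mimics were of miR-1, miR-34a, miR-365, miR-22, Let-7b, miR-145 and miR-29a. Each mimic had 3 arrays from independent experiments, and the control had 3 such arrays and a technical repeat of each, which were averaged to 3 control values. One array of untransfected cells labelled myoblast, proliferating and below full confluence, and 1 of cells labelled myotube, differentiated, completed the set of 29. Every group is the same cell line with no genetic change, and a mimic raises a microRNA far above its natural level. The wording on growth, in medium with fetal bovine serum, is the same for all samples, myotubes included. How the myotubes were made is thus not given in the sources used here.

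Mitotic kinesins build and move the spindle, align chromosomes and complete the division of the cell. They are made mainly by dividing cells, late in the cell cycle, and muscle cells leave the cell cycle before they fuse. Transport kinesins carry vesicles, mitochondria, membrane proteins and the parts of cilia along microtubules in dividing and non-dividing cells alike. In muscle fibres, conventional kinesin also moves the nuclei.

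The values are log2 signals, so a difference of 1 is a doubling, and a level can be compared between samples but not between genes. Array medians lay between 7.24 and 7.39. Markers of the muscle lineage were high throughout, with Myod1 at 12.03 in control cells, while 2 of 3 adipocyte markers and 2 of 3 macrophage markers lay below 6.67, the median of the probe sets with no listed gene, in every group. The fibroblast markers Twist2 and Pdgfra lay above it, at 9.84 and 8.37 in control cells. A member below that level in both groups compared is called dim here. The miR-145 arrays stood apart. The mean of 7 interferon response genes was 11.03 in miR-145 replicate 3, 7.58 and 7.23 in the other miR-145 arrays, and 6.04 to 6.19 in the controls. All 3 thus lay above the controls and replicate 3 lay farthest, so results for miR-145 are given with and without replicate 3. Without it the 2 that remain still lay above the controls by a mean of 1.28, with 5 of 7 of these genes called higher (2.29% of all genes). The array labelled myoblast also differed from the transfected controls, with Myog, a switch of muscle differentiation, at 11.56 against 9.76, and Mki67, a marker of dividing cells, at 11.09 against 11.83.

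Mitotic kinesins lay lower under the mimics, and their gap to the transport kinesins was widest under miR-1. The mean of the 11 mitotic kinesins, relative to the control mean, was −1.07 ± 0.27 (SD, n = 3) under miR-1, −0.43 ± 0.19 under miR-365, −0.42 ± 0.07 under miR-34a and −0.42 ± 0.18 under miR-22. Under miR-145, Let-7b and miR-29a it was −0.14 ± 0.10, −0.10 ± 0.04 and −0.10 ± 0.04. Without miR-145 replicate 3 the miR-145 mean was −0.09. The mean of the 13 transport kinesins ran from 0.05 ± 0.01 under miR-145 to 0.31 ± 0.09 under miR-1, and that under miR-145 was also 0.05 without replicate 3. In the 3 controls it was 0.04, −0.04 and 0.01. The median difference of the transport kinesins was 0.29 under miR-1 against −0.001 over all genes, but 0.05 under miR-145 against 0.04. Under the other mimics this median was 0.07 to 0.15, against −0.01 to 0.02. Under miR-34a it was 0.07, and 0.004 without the technical repeats. The mitotic mean minus the transport mean was −0.03 to 0.03 in the 3 controls and below that range in all 21 mimic samples, with group means of −1.38 ± 0.36 under miR-1, −0.59 ± 0.20 under miR-22, −0.54 ± 0.12 under miR-34a, −0.49 ± 0.23 under miR-365, −0.22 ± 0.02 under miR-29a, −0.19 ± 0.10 under miR-145 and −0.19 ± 0.05 under Let-7b. Without miR-145 replicate 3 it was −0.14 under miR-145. These are descriptions of the classes and all mimics share the same 3 control values, so the 7 groups do not repeat each other independently.

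**Figure D1:**
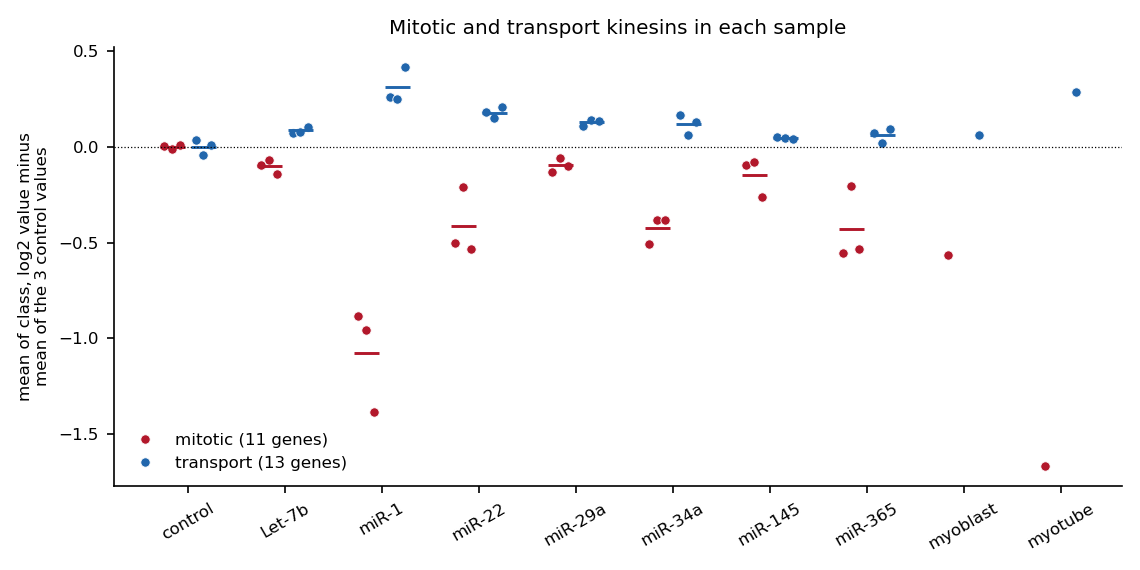
Mean of the 11 mitotic (red) and 13 transport (blue) kinesins in each sample, as the log2 value minus the mean of the 3 control values on the vertical axis and the group on the horizontal axis. Points are samples and short lines are means of 3. The miR-1 samples have the lowest mitotic means of all mimic samples, and the myotube array lies lower still at −1.67.

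By single genes, limma's test of each mimic against the control (Benjamini-Hochberg over all genes, threshold 0.05) called 69 of 266 pairs of a kinesin and a mimic. Over all genes 14.0% of such pairs were called, 6.26% lower and 7.74% higher. Mitotic kinesins were lower in 33 of 77 pairs and higher in 0, with 0 higher by leaving out any of the libraries a pair rests on or by any other alternative run. Transport kinesins were lower in 2 and higher in 23 of 91 pairs, and the remaining group was lower in 7 and higher in 4 of 98, which is near the share of all genes for the lower calls and below it for the higher ones. An F test over the 7 comparisons called 11 of 11 mitotic, 11 of 13 transport and 7 of 14 other kinesins, where 49.4% of all genes were called. In the test of each mimic against the control, 11 kinesins were called under no mimic. They were the transport genes Kif5a, Kif5b, Kif13a and Kif17 and, in the remaining group, Kif4-ps, Kif7, Kif12, Kif19a, Kif26a, Kif27 and Kif2b. Of these, Kif5b and Kif13a were called by the F test (adjusted p = 0.0144 and 0.0243). Both probe sets of the pseudogene Kif4-ps lay below 6.67 in the controls, at 6.58 for the one used and 6.03. The one not used differed by −0.09 to −0.42 under the 7 mimics, with −0.38 under miR-1. RNA was taken from whole cultures, so fewer dividing cells and less RNA in each cell cannot be told apart.

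**Figure D2:**
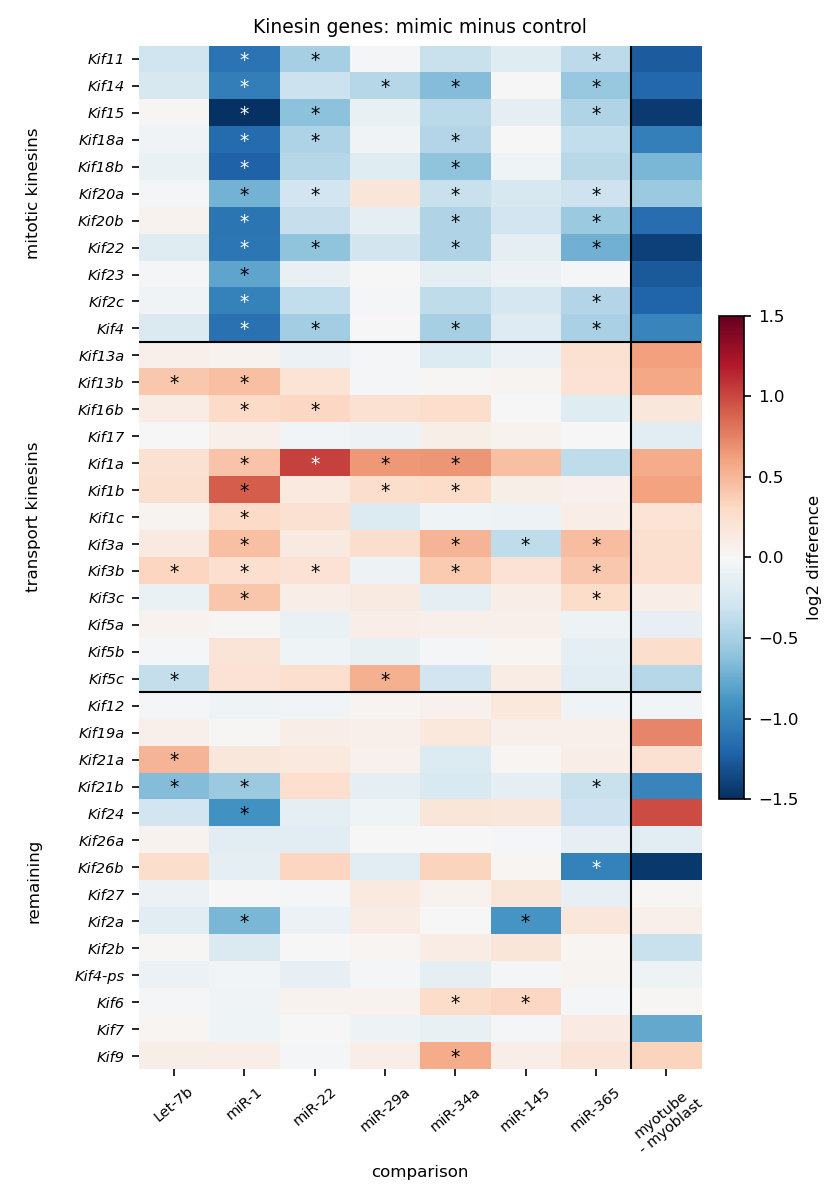
Log2 difference of each mimic from the control for the 38 kinesins (rows, by class), with the myotube minus myoblast difference of 1 array each in the last column. Blue is lower and red is higher, and a star marks an adjusted p under 0.05 in limma's test, which was not run for the last column. The 11 mitotic kinesins are starred under miR-1, and 8, 7, 6 and 1 of them under miR-365, miR-34a, miR-22 and miR-29a.

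The promoters of the mitotic kinesins are shown because the genes moved together. Cell cycle genes of this kind are known to carry a short element called CHR, with the letters TTTGAA, near their start, often with a CCAAT box, which binds NF-Y, and some have sites for E2F factors (searched as TTTCCCGC, TTTGGCGC, TTTCGCGC and TTTGCCGC). RefSeq promoters of build GRCm38.p6, from 250 bases before to 50 after the annotated start, were given for 31 of the 38 genes. TTTGAA on either strand stood in 9 of 10 mitotic, 1 of 10 transport and 2 of 11 other kinesins, against 17.9% of all 32851 promoters in the table. Within 50 bases of the start, a distance chosen after the positions had been seen, it stood in 7 of 10, 1 of 10 and 1 of 11, against 4.94% of all promoters. CCAAT stood in 6 of 10 mitotic, 3 of 10 transport and 5 of 11 other kinesins, against 37.4%, and an E2F word in 2 of 10, 0 of 10 and 0 of 11, against 2.26%. A match of letters describes the sequence and is not a measured binding site. The stretches around the match nearest to the start follow for the 9 mitotic genes, in the direction of the gene, with the CHR letters or their reverse complement in capitals:
Kif11 (chr19:37376336-37376395, plus strand): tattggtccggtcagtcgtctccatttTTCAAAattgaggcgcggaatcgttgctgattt
Kif15 (chr9:122951035-122951094, plus strand): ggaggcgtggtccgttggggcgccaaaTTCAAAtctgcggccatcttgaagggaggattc
Kif22 (chr7:127042405-127042464, minus strand): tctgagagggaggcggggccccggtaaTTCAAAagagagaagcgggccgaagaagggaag
Kif18b (chr11:102925089-102925148, minus strand): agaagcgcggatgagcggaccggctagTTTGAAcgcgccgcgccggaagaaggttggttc
Kif23 (chr9:61946765-61946824, minus strand): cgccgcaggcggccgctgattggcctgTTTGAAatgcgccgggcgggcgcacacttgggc
Kif20b (chr19:34922338-34922397, plus strand): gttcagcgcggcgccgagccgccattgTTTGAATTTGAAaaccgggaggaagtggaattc
Kif4 (chrX:100626057-100626114, plus strand): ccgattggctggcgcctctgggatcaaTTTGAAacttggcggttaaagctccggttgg
Kif2c (chr4:117178843-117178902, minus strand): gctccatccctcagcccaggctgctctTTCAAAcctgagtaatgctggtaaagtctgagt
Kif14 (chr1:136467598-136467652, plus strand): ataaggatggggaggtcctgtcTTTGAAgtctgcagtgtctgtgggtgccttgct

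In Kif11, Kif15, Kif22, Kif18b, Kif23, Kif20b and Kif4 the first base of the match lay at positions −19 to 19 relative to the start. In Kif2c and Kif14 it lay farther upstream, at −103 and −228. Kif18a, the tenth mitotic gene with a promoter, held no TTTGAA but an E2F word. The whole promoter of Kif15, which held both, is set beside that of the transport gene Kif1b, which held 2 CCAAT boxes and neither of the others, with all matches in capitals:
Kif15 (chr9:122950831-122951130, plus strand): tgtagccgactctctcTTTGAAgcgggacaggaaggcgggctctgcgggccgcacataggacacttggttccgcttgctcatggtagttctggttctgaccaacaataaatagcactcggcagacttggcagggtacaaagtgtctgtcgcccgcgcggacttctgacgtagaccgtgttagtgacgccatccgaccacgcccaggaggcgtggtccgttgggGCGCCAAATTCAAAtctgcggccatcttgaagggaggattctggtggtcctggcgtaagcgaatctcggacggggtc
Kif1b (chr4:149307649-149307948, minus strand): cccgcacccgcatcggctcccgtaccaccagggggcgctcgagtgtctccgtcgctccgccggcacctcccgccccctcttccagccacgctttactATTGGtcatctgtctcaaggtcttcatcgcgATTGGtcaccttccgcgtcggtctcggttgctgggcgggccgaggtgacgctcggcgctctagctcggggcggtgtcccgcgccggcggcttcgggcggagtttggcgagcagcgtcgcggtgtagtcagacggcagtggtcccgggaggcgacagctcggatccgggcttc

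**Figure D3:**
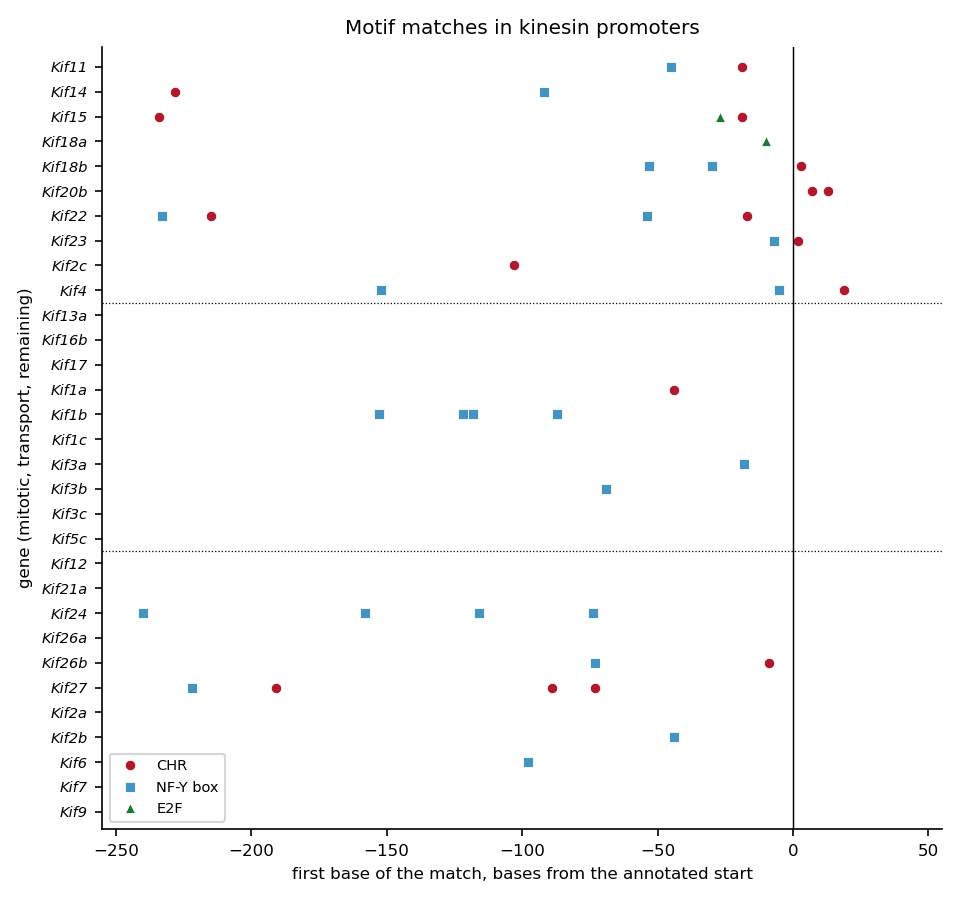
Position of each match of the CHR element (circles), the CCAAT box bound by NF-Y (squares) and the E2F words (triangles) in the promoters given for 31 kinesins, in bases from the annotated start on the horizontal axis. For a gene with more than 1 annotated start the matches of all its promoters are shown in 1 row. In 7 of 10 mitotic genes a CHR match lies within 50 bases of the start, and 1 of 10 transport genes, Kif1a, has a match.

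Under miR-1 all 11 mitotic kinesins fell, where 10.5% of all genes fell, with a median difference of −1.10 against 0.00 over all genes. Kif15, which helps to hold the spindle poles apart, was at 9.87, 9.70 and 9.69 in the controls and at 8.66, 8.34 and 7.80 under miR-1. The groups did not overlap and the difference was −1.48 ± 0.15 (SE, adjusted p = 1.5e-07), or 2.80-fold. Kif11, the motor that pushes the poles apart in the first place, was at 11.61 to 11.66 in the controls and at 10.71, 10.72 and 10.16 under miR-1, a difference of −1.10 ± 0.12 (adjusted p = 2.5e-07).

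The other 9 fell by between 0.71 and 1.22 on the log2 scale. Among motors that act on chromosomes and microtubule ends, Kif18b, which shortens astral microtubules, changed by −1.22 ± 0.15, and Kif18a, which dampens chromosome movements, by −1.16 ± 0.14. Kif4 and Kif22, motors bound to chromosome arms, changed by −1.12 ± 0.14 and −1.09 ± 0.14, and the depolymerase Kif2c by −1.01 ± 0.12. Among the motors of cytokinesis, Kif20b changed by −1.10 ± 0.13, Kif14 by −1.04 ± 0.11, Kif23, a part of centralspindlin, by −0.79 ± 0.08, and Kif20a, which brings Aurora B to the midzone, by −0.71 ± 0.09. Each of the 11 had all 3 miR-1 values below all 3 controls, and the share of all genes that did so was not counted. These calls held when each library was left out. Replicate 3 had the lowest miR-1 value for 11 of 11, an order that was not counted over all genes.

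The test against the mean of the other 6 mimics put miR-1 apart from them, with 11 of 11 mitotic kinesins lower (13.7% of all genes) by a median of −0.80. In the same test 8 mitotic kinesins were higher under Let-7b (8.19% of genes), 8 under miR-29a (8.80%) and 6 under miR-145 (10.3%), or 5 under miR-145 (6.34%) without its replicate 3. The counts for miR-1, Let-7b and miR-29a were the same without that array. The mean they were set against holds miR-1 and the 3 mimics described next.

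Under miR-365, 8 of 11 mitotic kinesins fell, against 8.33% of all genes, with a median of −0.44 against 0.00. Kif22 was at 10.26, 10.26 and 10.21 in the controls and at 9.39, 9.86 and 9.32 under miR-365, all below the controls, a difference of −0.72 ± 0.14 (adjusted p = 0.00053). Kif14 changed by −0.57 ± 0.11, Kif20b by −0.55 ± 0.13 and Kif4 by −0.49 ± 0.14. Kif15, Kif2c, Kif11 and Kif20a changed by −0.45, −0.44, −0.39 and −0.31. Kif18b (−0.41, adjusted p = 0.0612), Kif18a (−0.37, 0.0608) and Kif23 (−0.03) did not pass. With the replicate number as a block, which the samples warranted, Kif18b and Kif18a passed as well (adjusted p = 0.0164 and 0.0124). The count was 3 without control replicate 3, without miR-365 replicate 1 or without miR-365 replicate 3, and Kif14, Kif20b and Kif22 were called in all 6 such fits.

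Under miR-34a, 7 of 11 fell, against 6.06% of all genes, with a median of −0.44 against 0.02. Kif14, which works with citron kinase in the last step of division, was at 9.77, 9.70 and 9.72 in the controls and at 8.88, 9.20 and 9.15 under miR-34a. The groups did not overlap and the difference was −0.65 ± 0.11 (adjusted p = 0.00035). Kif18b changed by −0.60 ± 0.15 and Kif4 by −0.50 ± 0.14, and Kif18a, Kif20b, Kif22 and Kif20a by −0.33 to −0.45. Kif2c (−0.38, adjusted p = 0.0513), Kif11 (−0.33, 0.0727), Kif15 (−0.40, 0.0906) and Kif23 (−0.13) did not pass. With the replicate block, warranted here too, Kif2c, Kif11 and Kif15 passed as well (adjusted p = 0.013, 0.0209 and 0.0328). Leaving out control replicate 3 or miR-34a replicate 1 gave a count of 2, leaving out control replicate 2 gave 3 and leaving out miR-34a replicate 3 gave 4, and Kif14 and Kif18b were called in all 6 fits.

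Under miR-22, 6 of 11 fell, against 5.67% of all genes, with a median of −0.43 against −0.01. Kif22 was at 9.62, 9.83 and 9.46, below the controls at 10.21 to 10.26, a difference of −0.61 ± 0.14 (adjusted p = 0.00371). Kif15 changed by −0.61 ± 0.15, Kif4 by −0.52 ± 0.14, Kif11 by −0.49 ± 0.12, Kif18a by −0.47 ± 0.14 and Kif20a by −0.28 ± 0.09. With the replicate number as a block, which the miR-22 samples warranted, 10 were lower, with Kif2c, Kif14, Kif18b and Kif20b added and Kif23 (−0.11 in both fits) the exception. The count was 3 without control replicate 3, 3 without miR-22 replicate 1, 4 without control replicate 2 and 2 without miR-22 replicate 3, and Kif11 and Kif22 were called in all 6 such fits. Replicate 2 had the highest value of 11 of 11 mitotic kinesins under miR-22 and of 11 of 11 under miR-365. That order was not counted over all genes either.

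The other 3 mimics moved few mitotic kinesins. Under miR-29a, Kif14 alone fell, where 4.78% of all genes fell. It was at 9.28, 9.37 and 9.22, below the controls at 9.70 to 9.77, a difference of −0.43 ± 0.11 (adjusted p = 0.0134), and adjusted p = 0.0665 without miR-29a replicate 3. With the mean of the 2 Kif14 probe sets the call was also lost. The second probe set lay at 5.35 in the controls, below 6.67, and between −0.06 and 0.20 of that under the 7 mimics. Under Let-7b, where 5.46% of all genes fell, 0 mitotic kinesins passed and Kif11 came nearest (−0.30 ± 0.12, adjusted p = 0.109). Under miR-145, where 3.00% fell, 0 passed, with a median of −0.15 against 0.04 over all genes. Without replicate 3, where 1.35% fell, 0 passed again, with a median of −0.08 against 0.02. The mitotic mean was −0.26 in miR-145 replicate 3, which had the highest level of interferon response genes, and −0.09 and −0.08 in the other 2. Whether that response bears on the mitotic mean was not tested.

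Markers of the state of the cells also differed between the groups. The mean of the 3 measured markers of dividing cells (Mki67, Top2a and Cdk1) differed from the control by −0.86 under miR-1, −0.41 under miR-34a, −0.39 under miR-365 and −0.28 under miR-22, and by −0.03 to 0.03 under the other 3. Under miR-1 3 of 3 fell (10.5% of all genes) and under miR-34a 1 (6.06%). Under miR-22 2 fell (5.67%), under miR-365 2 (8.33%) and under the other 3 mimics 0. Sample means were 10.79 to 11.21 under miR-1 and 11.87 to 11.98 in the controls. The mean of 7 myotube markers was higher than the control by 0.77 under miR-1, 0.70 under miR-34a and 0.57 under miR-22. Called higher were 5, 4 and 3 of 7, where 13.2%, 5.62% and 8.82% of all genes were. Under miR-365 the myotube mean was higher by 0.27 with 0 called. It was also higher by 0.38 under miR-145 (0.33 without replicate 3) and by 0.37 under miR-29a. In each 1 was called, where 3.85% and 5.54% of all genes rose. Under Let-7b the myotube mean differed by −0.34 with 1 lower (5.46% of all genes). The mean of the mitotic kinesins was −0.43 under miR-365, −0.42 under miR-34a and −0.42 under miR-22. The mean of the 3 fibroblast markers differed by −0.47 under miR-34a, with 2 lower (6.06% of all genes). Under miR-1 it differed by −0.24 with 1 lower (10.5%) and under Let-7b by 0.51 with 1 higher (5.46%). Under the other 4 it differed by −0.22 to −0.10 with 0 called. The part of division, differentiation and fibroblast genes in the kinesin differences was not tested.

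Genes whose proteins work with the mitotic kinesins were counted from a list of 20, all measured. Under miR-1 19 of 20 fell, with a median of −0.78, where 10.5% of all genes fell. Under miR-365 14 fell (8.33% of all genes), under miR-22 12 (5.67%) and under miR-34a 6 (6.06%). Under Let-7b 2 fell (5.46%) and under miR-29a 1 fell (4.78%) and 1 rose (5.54%), where the shares of all genes correspond to about 1 of 20, and under miR-145 0 passed with or without replicate 3. Cdca8, a subunit of the chromosomal passenger complex that Kif20a carries, fell under 5 mimics, by −0.83 under miR-34a and −0.81 under miR-1. How many of all genes fell under as many mimics was not counted. Numa1, which gathers microtubules at the poles, was the one member that did not fall under miR-1 (0.15). Birc5, another passenger subunit, changed by −1.13 under Let-7b, the largest difference of the list under any mimic. The kinesin Cenpe, which carries chromosomes along the spindle and lies outside the symbol rule, fell under miR-1 (−1.11) and miR-34a (−0.60).

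Transport kinesins moved the other way under miR-1. There 8 of 13 rose and 0 fell, where 13.2% of all genes rose, with a median of 0.29 against 0.00, and against the mean of the other 6 mimics 7 were higher (15.0% of genes). Kif1b, a carrier of mitochondria and vesicles, was at 10.31, 10.02 and 10.10 in the controls and at 10.90, 10.95 and 11.29 under miR-1. The groups did not overlap and the difference was 0.90 ± 0.09 (adjusted p = 7e-08), or 1.87-fold. Kif13b changed by 0.45 ± 0.08 and Kif3c, a kinesin-2 subunit, by 0.42 ± 0.07. These 3 calls held under every alternative, and that of Kif3b (0.25 ± 0.07) was lost when only miR-1 and the control entered the fit (adjusted p = 0.065). Kif3a (0.45), Kif1a (0.43), Kif1c (0.29) and Kif16b (0.29) lost their calls without miR-1 replicate 3, with adjusted p of 0.0507, 0.119, 0.308 and 0.25. Kif1a also lost it without miR-1 replicate 1 or control replicate 1 or 2, Kif1c without control replicate 2 or 3 and Kif16b without control replicate 1 or 2. Kif5b, the conventional kinesin of most tissues, differed by 0.19 and did not pass in this fit (adjusted p = 0.0675).

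Kif3a and Kif3b form the 2 motor subunits of kinesin-2, which builds cilia. Kif3b rose under 5 of 7 mimics, and the share of all genes that rose under as many was not counted. Its value ran from 8.98 to 9.03 in the controls. It was at 9.41, 9.35 and 9.46 under miR-365 (0.40 ± 0.07, adjusted p = 9.1e-05) and at 9.46, 9.26 and 9.45 under miR-34a (0.39 ± 0.07, adjusted p = 0.00029), above every control. Under Let-7b it changed by 0.32 ± 0.07 and under miR-22 by 0.22 ± 0.07, but the miR-22 call was lost under 8 alternatives, among them leaving out any 1 control or miR-22 replicate 1 or 3. Kif3a was at 8.39, 8.09 and 8.23 in the controls, and it rose under miR-34a (0.51 ± 0.11) and miR-365 (0.46 ± 0.11) and in both lay above all controls.

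Under miR-145 Kif3a fell instead. It was at 8.0, 7.99 and 7.59, below the controls, with a difference of −0.38 ± 0.11 (adjusted p = 0.0447). Without replicate 3 the difference was −0.25 ± 0.11 (adjusted p = 0.304), and the call was also lost without control replicate 1 or 3. Kifap3, which links the 2 subunits to cargo, was called under 0 mimics.

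Kif1a, best known as a carrier of synaptic vesicle parts, rose most under miR-22, where 8.82% of all genes rose. It was at 8.34, 8.33 and 8.49 in the controls and at 9.45, 9.10 and 9.68 under miR-22, all above the controls, a difference of 1.02 ± 0.14 (adjusted p = 2.4e-05). It also rose under miR-34a (0.66 ± 0.14, adjusted p = 0.0028) and miR-29a (0.65 ± 0.14, adjusted p = 0.00333), where 5.62% and 5.54% of all genes rose. Under miR-145 Kif1a lay above all controls but did not pass (0.45 ± 0.14, adjusted p = 0.0598). With the replicate number as a block, which the miR-145 samples did not warrant, adjusted p was 7.4e-04. Without miR-145 replicate 3 the difference was 0.43 ± 0.16 (adjusted p = 0.172). Under miR-365 its 3 values of 8.08, 7.88 and 8.05 lay below all controls (−0.39 ± 0.14, adjusted p = 0.0589), and with the replicate number as a block, which the miR-365 samples warranted, adjusted p was 9.2e-04. Kif16b, a motor of early endosomes, changed by 0.31 ± 0.09 under miR-22 (adjusted p = 0.0262), and the call was lost without any 1 control or miR-22 replicate 3. Under miR-34a it differed by 0.27 (adjusted p = 0.0727, and 0.0287 with the block). Under miR-29a and miR-34a Kif1b changed by 0.27 in each, with adjusted p of 0.0499 and 0.0387. Both calls were lost without control replicate 2 or 3 or any 1 of the mimic's own replicates.

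Kif5c, a conventional kinesin heavy chain that is abundant in neurons, moved in both directions. It was at 8.13, 7.96 and 7.96 in the controls, at 8.60, 8.58 and 8.46 under miR-29a and at 7.70, 7.76 and 7.51 under Let-7b, and neither group overlapped the controls. The differences were 0.53 ± 0.10 (adjusted p = 8e-04) and −0.36 ± 0.10 (adjusted p = 0.0164). Under miR-22 and miR-34a Kif5c differed by 0.25 and −0.28 (adjusted p = 0.102 and 0.0647), and both passed with the replicate block (0.0303 and 0.0146). The fall under Let-7b was lost without control replicate 1 (adjusted p = 0.0887) or Let-7b replicate 3 (adjusted p = 0.127). Kif13b rose under Let-7b as it did under miR-1, where 5.46% of all genes rose under Let-7b. It was at 7.88, 7.78 and 7.89 in the controls and at 8.2, 8.24 and 8.33 under Let-7b, a difference of 0.40 ± 0.08 (adjusted p = 0.00131). Under miR-365, where 11.7% of all genes rose, Kif3c changed by 0.28 ± 0.07 (adjusted p = 0.00674), and by 0.24 (adjusted p = 0.0542) without miR-365 replicate 3.

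**Figure D4:**
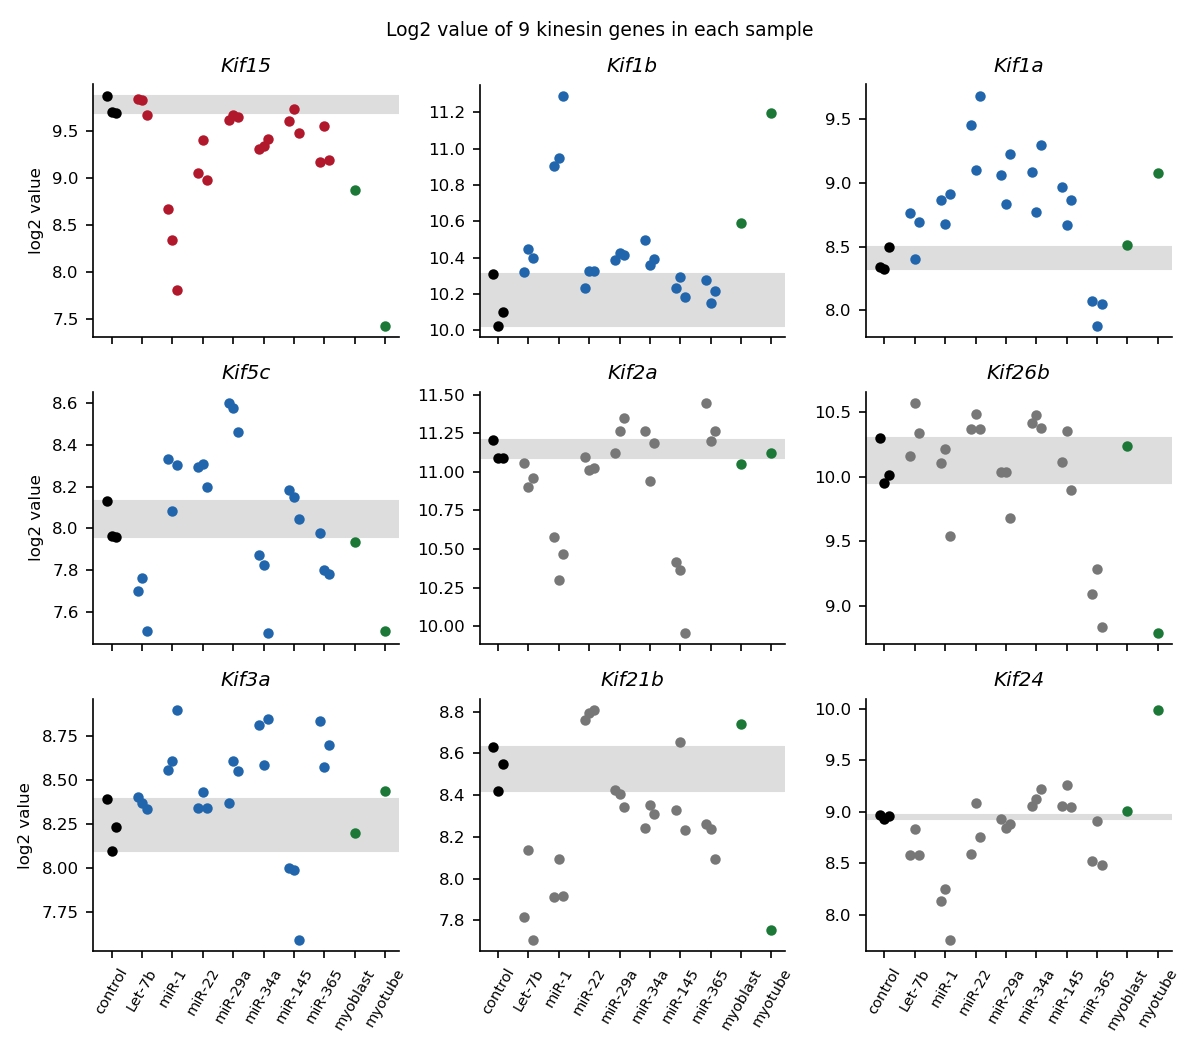
Log2 value of 9 kinesins in each sample on the vertical axis, with a scale of its own for each gene, and the group on the horizontal axis. Black points are the 3 control values, the grey band is their range, red, blue and grey points are mimic samples of mitotic, transport and remaining genes, and green points are the single myoblast and myotube arrays. Kif26b lies below the control band under miR-365 and in the myotube array, and Kif2a under miR-145 and miR-1.

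Among the remaining 14 the changes fell on single genes. Kif2a, a depolymerase that trims microtubule ends at spindle poles and in growing axons, was at 11.21, 11.09 and 11.09 in the controls and at 10.41, 10.37 and 9.96 under miR-145. It did not overlap the controls, and the difference was −0.88 ± 0.11 (adjusted p = 1.1e-05), or 1.85-fold. Without replicate 3, which had the highest level of interferon response genes, it was −0.74 ± 0.10 (adjusted p = 5.3e-05). Kif2a also fell under miR-1, with values of 10.58, 10.30 and 10.47 and a difference of −0.68 ± 0.11 (adjusted p = 3.2e-05), while under the other 5 mimics it was not called and in the myotube array it differed from the myoblast array by 0.07.

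Kif26b, a kinesin tied to Wnt signalling and cell adhesion in development, fell under miR-365. It was at 10.30, 9.95 and 10.01 in the controls and at 9.09, 9.28 and 8.84 under miR-365, with no overlap, a difference of −1.02 ± 0.15 (adjusted p = 4.1e-05). Its second probe set gave −0.96. Kif26b was called under no other mimic.

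Kif24, which restrains the growth of cilia at centrioles, was at 8.97, 8.93 and 8.96 in the controls and at 8.13, 8.25 and 7.76 under miR-1, a difference of −0.90 ± 0.13 (adjusted p = 1.2e-05). Under miR-365 it differed by −0.31 (adjusted p = 0.103, and 0.0329 with the replicate block). Kif21b, which slows microtubule growth, fell under Let-7b (7.82, 8.14 and 7.71 against 8.63, 8.42 and 8.55; −0.65 ± 0.10, adjusted p = 0.00018), under miR-1 (−0.56 ± 0.10, adjusted p = 0.00026) and under miR-365 (−0.34 ± 0.10, adjusted p = 0.0235). The miR-365 call was lost without the technical repeats and without control replicate 1, control replicate 3 or miR-365 replicate 3.

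Its relative Kif21a rose under Let-7b (0.51 ± 0.12, adjusted p = 0.00807), and by 0.42 (adjusted p = 0.0689) without Let-7b replicate 3. Kif9, a kinesin of motile cilia, was at 6.66, 6.65 and 6.54 in the controls, around the dim level, and at 7.28, 7.07 and 7.18 under miR-34a, a difference of 0.56 ± 0.09 (adjusted p = 0.00014). Kif6 passed under miR-34a (0.28, adjusted p = 0.0496) and under miR-145 (0.31, adjusted p = 0.0431), where 3.85% of all genes rose. Its second probe set differed by 0.10 and −0.08, the call under miR-34a was lost whichever library was left out, and that under miR-145 was lost without replicate 3 (adjusted p = 0.297), replicate 2 or any 1 control. Without replicate 3, where 2.29% of all genes rose under miR-145, 0 kinesins were higher and Kif2a was the one that was lower.

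Other genes of microtubule transport were counted from lists too. Of 15 measured partners of transport kinesins, 6 rose and 0 fell under miR-1, where 13.2% of all genes rose and 10.5% fell, among them the kinesin light chain Klc1 (0.51), while Trak2, an adaptor for mitochondria, fell under miR-29a, miR-34a and miR-365, by −0.90 under miR-34a. Of 17 measured subunits of dynein and dynactin, the motor that runs the opposite way, 8 rose and 0 fell under miR-1. Under miR-365 7 of the 17 rose and 3 fell, where 11.7% of all genes rose and 8.33% fell. In dynactin, Dctn4 rose under 6 mimics, by 0.28 to 0.53, and Actr1a fell under 6, by −0.16 to −0.34, with its call under miR-145 lost without replicate 3 (adjusted p = 0.177). Of 11 measured tubulins, 4 fell under Let-7b (5.46% of all genes) and 4 under miR-34a (6.06%), with Tubb3 at −0.86 and −0.60. The minus-end kinesin Kifc3 rose under 5 mimics, by 0.56 under miR-1, but its call under miR-145 was lost without replicate 3 (adjusted p = 0.224), and Kifc2 was called under none.

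The classes also differed between the untransfected arrays. In the myotube array all 11 mitotic kinesins lay below the myoblast array, as 10626 of 19938 genes did. Their median difference was −1.17, against −0.02 over all genes. Of the mitotic kinesins 8 of 11 lay lower by 1 or more, as 2.01% of all genes did. Kif15 was at 8.87 in myoblasts and 7.43 in myotubes, Kif22 at 9.62 and 8.21, Kif23 at 10.67 and 9.41, Kif11 at 11.26 and 10.01 and Kif2c at 9.96 and 8.77. Kif14, Kif20b and Kif18a differed by −1.17, −1.14 and −1.02, and the 3 others, Kif4, Kif18b and Kif20a, by −0.99, −0.69 and −0.56. Of the transport kinesins, 10 of 13 lay higher, from Kif3c (0.11) to Kif13a (0.62), as 9287 of 19938 genes did. The median of the 13 was 0.24, and 0 of 13 were higher by 1 or more, where 2.71% of all genes were. Kif1b was at 10.59 and 11.19, and Kif5b at 12.33 and 12.59. Kif5c (−0.42), Kif17 (−0.16) and Kif5a (−0.13) lay lower. With 1 array each there is no replicate check.

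Kif26b, at 10.23 and 8.79, was the one kinesin outside the mitotic class that lay lower by 1 or more. Kif24 went against the mitotic class here, at 9.01 in myoblasts and 9.99 in myotubes, and so against its own fall under miR-1. Kif19a (0.73) lay higher, and Kif21b (−0.99) and Kif7 (−0.77), a regulator of Hedgehog signalling, lay lower. The second probe set of Kif7, at 8.06 in the controls against 8.14 for the one used, differed by −0.34.

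**Figure D5:**
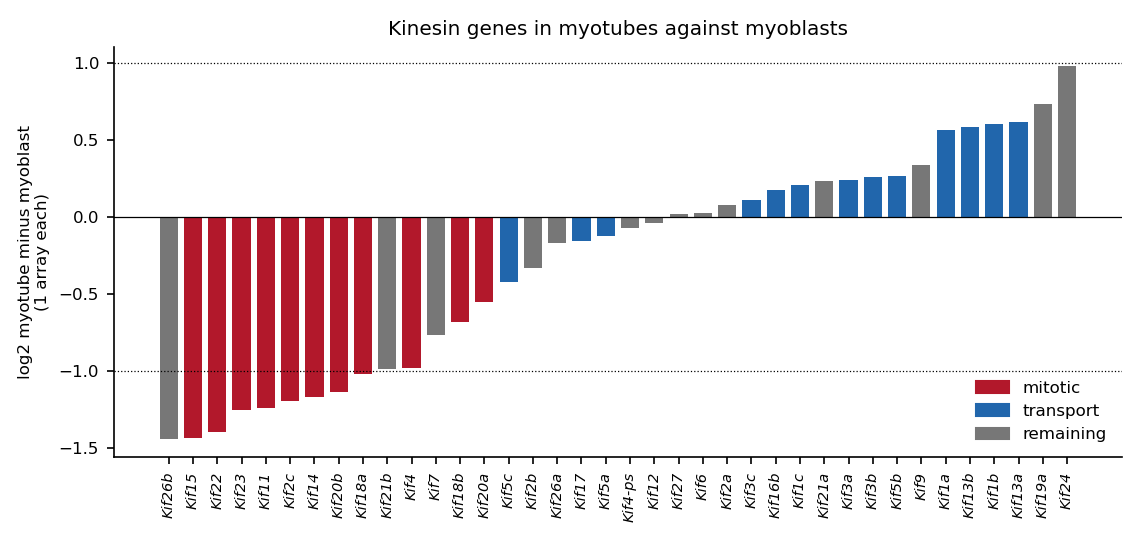
Log2 value in the myotube array minus that in the myoblast array for the 38 kinesins, sorted, with 1 array each and so no error. Red bars are mitotic, blue transport and grey remaining genes, and dotted lines mark −1 and 1. All 11 mitotic kinesins lie below 0, as 10626 of 19938 genes do, and 10 of 13 transport kinesins lie above it, as 9287 do.

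The myoblast array itself lay below the transfected controls for the mitotic class. All 11 mitotic kinesins were below all 3 control values, as 33.7% of all genes were, by a median of 0.63 and by up to 0.89 for Kif15. In that array the mean of the markers of dividing cells was lower than in the controls by 0.56 and that of the 7 myotube markers higher by 1.60. The mitotic mean of the myoblast array, −0.57, thus lay below that of 18 of the 21 mimic samples. Transfection, growth and differentiation of this array cannot be told apart, and its distance from the myotube array is given without reference to the control.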

How the data were processed

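RNA of 29 samples was measured on Affymetrix mouse arrays. The deposited values are log2 signals, made with RMA in Affymetrix Expression Console 1.1 per the submitters' processing notes; filters and a genome build are not given in the sources used here. RMA sets the arrays to a common distribution, so values are relative to the other genes. Of 35556 probe sets, 21789 listed 1 gene symbol, 1621 several and 12146 none. Each gene was represented by the 1-symbol probe set with the highest mean, which gave 19938 genes and no filter on dim genes. The rule gave every mitotic and transport member a name in the text, and of the remaining group those called under a mimic or differing by 1 or more in myotubes.

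Differences were tested gene by gene with limma 3.58.1 in R 4.3.3, in a linear model of 8 groups and 24 values, with moderated variances that follow a trend with mean level, 2-sided tests and Benjamini-Hochberg adjustment over all genes within each comparison. The SE of a gene comes from this model, and errors of class means are standard deviations over 3 samples that leave out the spread of the controls. The code was tested on simulated data. The kinesin classes, gene lists and tests were chosen with earlier results of these data known.

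Replicate numbers were checked for pairing on residuals, and each of the 24 values was closest to those that shared its number. The 3 correlations with the control all exceeded 0.1 for miR-22, miR-29a, miR-34a and miR-365 (lowest 0.122, 0.155, 0.206 and 0.301) but not for Let-7b, miR-1 and miR-145 (lowest 0.0819, −0.0362 and −0.0355). Alternatives covered the normalization, dim genes, probe sets, technical repeats, the replicate block, the samples in the fit, the class of Kif2a, Kif2b and Kif24, and each library left out. The number of arrays limits the precision.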

Additional observations from a re-analysis of the deposited data

How the results depend on the processing

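All 69 calls of a kinesin under a mimic kept their direction in every setting run, 38 stayed past the threshold in all of them and 30 lost it when some single library was left out. With the replicate number as a block the 69 calls were kept and others were added, which gave 10 lower mitotic kinesins under miR-22 in place of 6, 1 under Let-7b (Kif11) and 1 under miR-145 (Kif20a) in place of 0, and 5 other kinesins under miR-145 in place of 3 (Kif1a and Kif3b added). Under miR-1 Kif5b and Kif5c passed with the block (adjusted p = 0.0141 and 0.0402) and under Let-7b Kif1b did (0.047), although the numbers of miR-1, Let-7b and miR-145 did not meet the criterion for pairing. The block changed no other count by over 1.5 times. The count of 10 under miR-22 was also reached with the 6 control arrays and the transfection as a random block, and with only miR-22 and the control in the fit, which likewise gave 1 for Let-7b. The count of 5 under miR-145 was also reached without the technical repeats and with the random block. Without the technical repeats 8 mitotic kinesins were lower under miR-34a in place of 7 and 4 other kinesins were called under miR-22 in place of 3. Further quantile normalization and centring each array on its median both left 1 other kinesin under miR-22 in place of 3. The mean of all probe sets of a gene left 0 mitotic kinesins under miR-29a in place of 1. Counting Kif2a, Kif2b and Kif24 as mitotic gave 1 of 14 under miR-145, and 13 of 14 under miR-1 in place of 11 of 11. With medians in place of means the mitotic minus transport difference under miR-29a was −0.16 in place of −0.22. Leaving out 1 library gave 2 to 9 lower mitotic kinesins under miR-22, 2 to 5 under miR-34a, 3 to 10 under miR-365 and 0 to 1 under miR-29a. For the other kinesins it gave 3 to 5 called under Let-7b, 7 to 13 under miR-1, 1 to 3 under miR-22, 1 to 3 under miR-145 and 3 to 6 under miR-365. Class means, medians, lists and markers without miR-145 replicate 3 were added after the data had been seen, and the mitotic minus transport difference was then −0.14 in place of −0.19. The cause of these shifts was not tested. Leaving out the members below 6.67 removed no mitotic or transport kinesin, so it gave the main values. Members near that level are limited by background, and 3 values a group limit the rest.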
